A study of Mus musculus with 11 samples.

Results

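The 42 genes described here encode the thioredoxin and glutathione systems and the other enzymes that remove superoxide and peroxides, together with the NRF2 regulator and its inhibitor KEAP1. They were chosen by name, and the set was selected because it holds Txnrd3, which was among the genes with the lowest p between OSM and PBS in an earlier analysis of the same mice. The comparison of OSM with PBS is therefore given for them as a description, while the comparisons between litters were not part of the choice. All 42 matched 1 of the 55359 genes in the count files, and all 42 were among the 17050 genes that passed the filter on low counts.

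The study asked how oncostatin M (OSM), a cytokine of the interleukin-6 family, alters vascular endothelial cells in oxygen-induced retinopathy (OIR), a mouse model in which high oxygen closes retinal vessels and the return to room air drives new ones. C57BL/6 mice in the OIR model received 0.5 µL of OSM at 100 ng/µL (5 mice) or 0.5 µL of PBS (6 mice) into the vitreous at postnatal day 12 (P12). At P17, CD31+/CD45- cells were sorted from the pooled retinas of each mouse, so that 1 sample is 1 mouse, and RNA was sequenced. The mice came from 3 litters, each of which was also 1 OIR run, with 4 mice in litter 1 (OSM mice 1 and 2, PBS mice 3 and 4), 4 in litter 2 (OSM mice 5 and 6, PBS mice 7 and 8) and 3 in litter 3 (OSM mouse 9, PBS mice 10 and 11). Litter and OIR run cannot be told apart. All animals, the PBS controls included, had been through OIR, and no mice kept in room air were part of this experiment. The methods of the study describe PBS injections into the contralateral eye for its OIR experiments, whereas the labels give each sorted sample a single treatment, so whether both eyes of an OSM mouse received OSM was not stated for the sorted samples.

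Cells remove hydrogen peroxide and lipid peroxides by 2 thiol systems. In the first, thioredoxin reductases take electrons from NADPH and pass them to thioredoxin, which in turn reduces the peroxiredoxins. In the second, glutathione, made from glutamate, cysteine and glycine, is used by glutathione peroxidases and transferases and is reduced again by glutathione reductase. NRF2, which KEAP1 marks for degradation, binds the antioxidant response element and drives transcription of many of these genes.

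Some of these enzymes carry selenocysteine, which is encoded by a TGA codon that elsewhere ends translation, and this sets the family members apart by sequence. A TGA codon in the reading frame before the stop codon was found in 6 of the 42 members (14.3%), compared with 20 of 13244 other coding genes tested (0.151%), in the canonical transcripts of GENCODE vM39 on GRCm39. The lines below show that codon in capitals, with 4 codons on each side or up to the stop codon, 5′ to 3′, and for Gpx7 and Gpx8 the codon that aligned with the TGA of Gpx1.
Txnrd1: cagtctggctgcTGAggttaa
Txnrd2: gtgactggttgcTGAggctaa
Txnrd3: cagaaaggctgcTGAggctag
Gpx1: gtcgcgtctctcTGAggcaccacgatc
Gpx3: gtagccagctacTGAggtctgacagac
Gpx4: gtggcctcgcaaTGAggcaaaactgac
Gpx7: gtagctagcgaaTGTggcttcacagac
Gpx8: gtggctagtgacTGCcgcttcacagac
In the 3 thioredoxin reductases the TGA was the last codon but 1 before the stop codon. For Txnrd3 it lay at chr6:89651771-89651773 in exon 16 of 16, codon 614 of 615, on the plus strand. For Txnrd1 it lay at chr10:82731871-82731873 in exon 14 of 14, and for Txnrd2 at chr16:18296522-18296524 in exon 17 of 18. In the glutathione peroxidases it stood within the protein, at codon 47 of 201 in exon 1 of Gpx1 (chr9:108216650-108216652) and at codon 73 of 197 in exon 3 of Gpx4 (chr10:79890571-79890573). Gpx7 and Gpx8 had the cysteine codons TGT and TGC at the aligned position. The proteins translated from Txnrd1 and Txnrd3 were identical at 72.3% of 499 aligned residues, and those of Txnrd1 and Txnrd2 at 55.8% of 496.

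The antioxidant response element was searched in the promoters as its core TGACNNNGC, on both strands, from 250 bases before to 50 bases after the start site of the canonical transcript. The core was found in 8 of the 42 members (19%) and in 2251 of 16919 other genes tested (13.3%). The letters TGACTCA, known from AP-1 and from some antioxidant response elements, were found in 6 members (14.3%) and 628 others (3.71%), and in Prdx1 the 2 overlapped. The cores of members described in full below are shown in capitals, with 8 bases on each side, on the strand that reads TGAC.
Txnrd1: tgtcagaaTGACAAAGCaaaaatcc
Prdx1: acgggggaTGACTCAGCgctttccc
Sod1: attgtcacTGACTTTGCacagcgcg
Srxn1: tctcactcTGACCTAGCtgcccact
These stretches lay at chr10:82694940-82694964 for Txnrd1, chr4:116542655-116542679 for Prdx1, chr16:90017305-90017329 for Sod1 and chr2:151947464-151947488 for Srxn1. Their centres stood 61, 74 and 91 bases before the start site in Txnrd1, Prdx1 and Sod1, and 32 bases after it in Srxn1. The other 4 members with a core were Prdx6, Gclm, Gstm5 and Hmox2. Such a match is a description of letters, and binding was not measured. Sequence outside this window was not searched, so a member without a core here is not shown to lack the element.

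The libraries held 26697990 to 56033479 reads on genes (median 32500202). The 6 endothelial markers Pecam1, Cdh5, Cldn5, Kdr, Tek and Erg had reads in all 11 mice and summed to 7483 to 10210 CPM, the unit of normalised read counts used throughout (TMM-scaled counts relative to library size), whereas 7 leukocyte markers summed to 0.287 to 14.7 CPM. Transcripts of other retinal cells were present, with rod markers at 175 to 1659 CPM in 10 mice and at 4988 CPM in mouse 5. The 7 Müller glia markers summed to 172 to 415 CPM. Among these, Glul had the highest mean with 237.5 CPM, and Aqp4 had reads in 2 mice. Mural cell markers ranged from 269 to 1496 CPM and erythroid markers from 117 to 1129 CPM. In bulk samples, fewer cells of a type and less RNA per cell cannot be told apart.

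Most of these antioxidant genes were well expressed in the sorted cells. Per kilobase of exon, 41 of the 42 lay above the median of all genes tested. The median of the members was 16.8 CPM per kb, compared with 1.97 CPM per kb for all genes. As the members were chosen with earlier results of these data known, this describes the listed genes only. In the lists of related genes given below, the median ran from 0.513 (sources of superoxide) to 17 CPM per kb (disulfide formation). For the further glutathione enzymes it was 2.32 CPM per kb. The highest level was that of Gpx1, the main cytosolic glutathione peroxidase, with 769.6 ± 120 CPM per kb (SD, n = 11) and a range of 603 to 974. Prdx1, a cytosolic peroxiredoxin, followed with 208 ± 31.6 and Gpx4, which reduces lipid hydroperoxides in membranes and guards against ferroptosis, with 153 ± 43.4 CPM per kb. Txn1, cytosolic thioredoxin, reached 115, Prdx2 92.3, Cat 88.5, Gsta4 75.8 and Txnip 61.8 CPM per kb. The gap between Gpx1 and Prdx1 was 1 of only 2 in the order of levels where the ranges over 11 mice did not overlap, and the other separated Nqo1 from Slc7a11. In the remaining 39 neighbouring pairs the ranges overlapped, so the order there is not set beyond the spread between mice. Gpx1, Prdx1 and Gpx4 held ranks 1, 2 and 3 with the longest transcript in place of the exon union, while with the canonical transcript Txn1 stood above Gpx4 (322 and 274 CPM per kb).

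**Figure D1:**
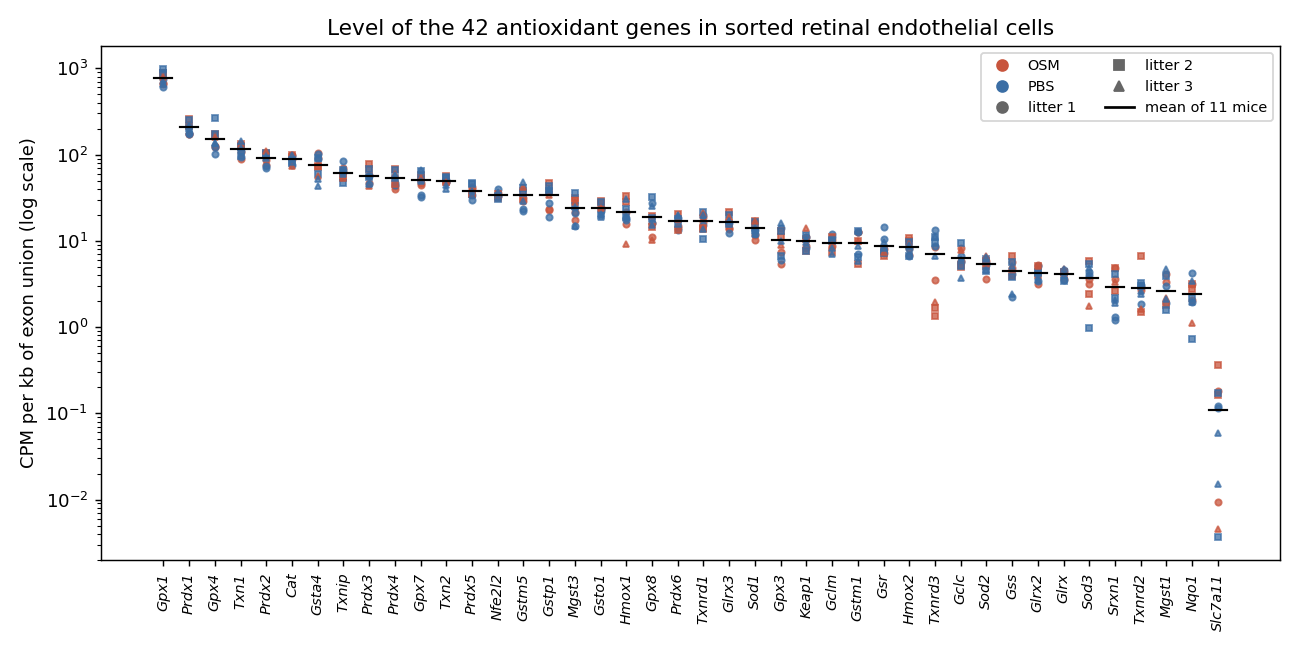
Level of each of the 42 genes in CPM per kb of exon union on a log axis, with 1 point per mouse (red OSM, blue PBS, shape for litter) and a bar for the mean of 11 mice. Gpx1 stands alone at the top and Slc7a11 alone at the bottom, and the value of 0 for Mgst1 in mouse 5 has no place on the log axis.

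At the lower end stood Nqo1, a quinone reductase and classical NRF2 target, with 2.43 CPM per kb, and Slc7a11, the cystine importer that supplies cysteine for glutathione, with 0.11 CPM per kb. Slc7a11 rested on 2 to 160 reads per mouse and was the one member below the median of all genes. Among the superoxide dismutases, cytosolic Sod1 stood at 13.9, mitochondrial Sod2 at 5.41 and extracellular Sod3 at 3.67 CPM per kb. Of the 3 thioredoxin reductases, cytosolic Txnrd1 had 16.8, Txnrd3 7.05 and mitochondrial Txnrd2 2.87 CPM per kb. The median coefficient of variation between the 11 mice was 20.9% for the members, ranging from 7.81% in Nfe2l2 to 99.3% in Slc7a11. For the 11679 genes in the same range of CPM (1.71 to 1112) the median was 31.3%. Those genes were not matched to the members by level within that range. In the lists of related genes given below, the median ran from 17.4% (disulfide formation) to 119% (sources of superoxide). Reads were counted without regard to strand. At the standard settings used, a read in bases shared by 2 annotated genes is assigned to neither, which lowers the count. In GENCODE vM39 such overlap covered over 25% of the exon bases of 8 members, namely Gpx1 (85.3%), Gpx3 (85%), Hmox2 (75.8%), Sod1 (48.8%), Gss (32.7%), Txnip (29.3%), Prdx5 (29.2%) and Keap1 (25.8%). The authors counted with an earlier GENCODE release, so these shares need not hold for their counts. Prdx1, Prdx2, Prdx6 and Gpx4 have named pseudogenes, and reads aligned to several places are not counted at these settings either. The levels of these genes and of the 8 overlapped members are uncertain to that extent.

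Between OSM and PBS, the median difference of the set was near 0, and Txnrd3 had the largest difference of the 42. In the fit with litter as a term, 26 members were higher and 16 lower in OSM. The median of their log2 fold changes was 0.02, compared with -0.01 for all genes. Of the 42, 34 (81%) lay within 0.25 of 0, compared with 7688 of all 17050 genes (45.1%). Most members were above the median level of all genes, and these shares were not matched for level. No member passed an adjusted p under 0.05 with edgeR's quasi-likelihood test, and neither did any of the 17050 genes (0%). DESeq2 called 168 genes, of which 1 was a member, Txnrd3. At an unadjusted p under 0.05 there were 4 members, Srxn1 higher and Txnrd3, Gpx8 and Gsr lower, beside 846 of all genes (4.96%). Without OSM mouse 9 there were 2 such members, and without litter 1 there was 1. Without Txnrd3, 26 of 41 members were higher and 15 lower, with the same median of 0.02. The set was chosen with this comparison known, and nothing is read from these counts.

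Txnrd3, a thioredoxin reductase with an added glutaredoxin domain that is best known from the testis, had 10.2, 24.4, 4.76, 3.84 and 5.54 CPM in OSM mice 1, 2, 5, 6 and 9. In the PBS mice it had 25.3 and 38.2 CPM in litter 1, 31.8 and 27 CPM in litter 2, and 32.9 and 19 CPM in litter 3. Of the 5 OSM mice, 4 lay below every PBS mouse, and OSM mouse 2 lay above PBS mouse 11, so the groups overlapped. The log2 fold change was -1.92 (SE 0.41), and within litters 1, 2 and 3 it was -0.95, -2.64 and -2.08. The gene rested on 110 to 1222 reads per mouse, and no other annotated gene overlapped its exons, which lie within chr6:89620934-89652512.

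No member had groups that did not overlap, whereas among all genes every OSM mouse lay below every PBS mouse in 38 (0.223%) and above every PBS mouse in 31 (0.182%). The sign was the same in all 3 litters for 11 members (26.2%), 6 of them higher and 5 lower, and for 3943 of all genes (23.1%).

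The 2 related reductases had log2 fold changes near 0. Txnrd1 had 115.6, 133, 100.5, 96.8 and 151 CPM in the OSM mice and 74.5 to 151 CPM (median 124) in the PBS mice. The OSM values lay within the range of the PBS values, with a log2 fold change of 0.01 (SE 0.19). Txnrd2 differed by 0.06 (SE 0.40), and mouse 5, an OSM mouse, held the highest value with 28.9 CPM compared with 6.63 to 14.4 CPM in the others. Mouse 5 was also the mouse with the most rod transcripts, whose part in this value was not tested.

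**Figure D2:**
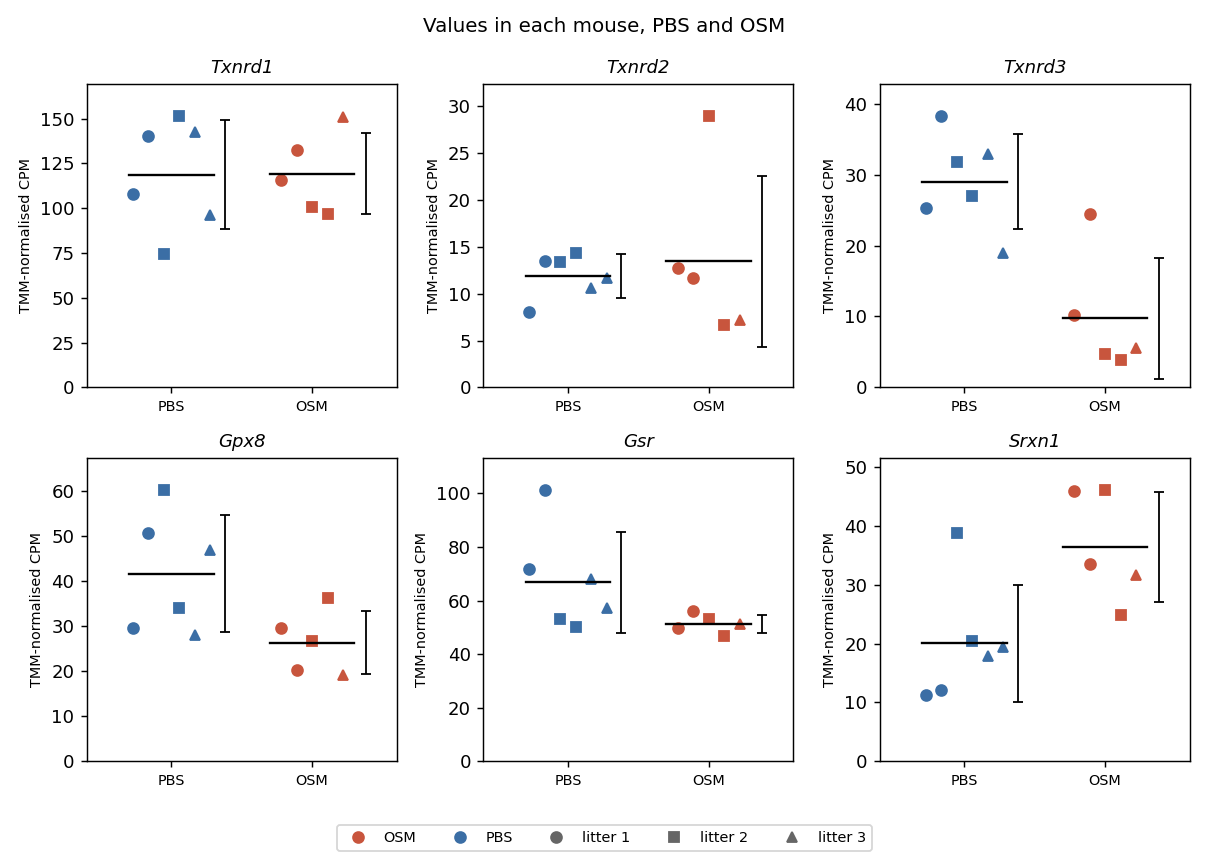
TMM-normalised CPM of the 3 thioredoxin reductases and of Gpx8, Gsr and Srxn1 in each mouse, with the mean (line) and SD (bar) of 6 PBS and 5 OSM mice and the litter as shape. Txnrd3 is low in 4 of 5 OSM mice, the OSM values of Txnrd1 lie within the PBS range, and the groups overlap in every panel.

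Thioredoxin and the protein that binds and blocks it overlapped between the groups. Txnip, the thioredoxin-interacting protein, had 198, 224, 167, 174 and 168 CPM in the OSM mice and 146 to 269.8 CPM (median 203) in the PBS mice. Its log2 fold change was -0.14 (SE 0.11), with the same sign in each litter. For Txn1 the fitted log2 difference was 0.09 (SE 0.11), and for mitochondrial Txn2 it was 0.00 (SE 0.08).

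Among the peroxiredoxins and their repair enzyme, Srxn1 had the largest difference. Srxn1, sulfiredoxin, which restores overoxidised peroxiredoxins, had 45.9, 33.5, 46, 24.9 and 31.6 CPM in the OSM mice and 11.3 to 38.8 CPM (median 18.7) in the PBS mice. All 5 OSM mice lay above 5 of the 6 PBS mice, and the exception was PBS mouse 7. The log2 fold change was 0.94 (SE 0.31), and within litters 1, 2 and 3 it was 1.70, 0.26 and 0.75. By contrast, Prdx1 had 719, 712, 888, 1085 and 928 CPM in the OSM mice and 729.7 to 1058 CPM (median 862) in the PBS mice, with a log2 fold change of 0.02 (SE 0.08). The other 5 peroxiredoxins ranged from -0.09 in Prdx6 to 0.13 in Prdx2. All 5 erythroid markers tested also had positive log2 fold changes (1.02 to 1.46) with an unadjusted p under 0.05, and none passed after adjustment with edgeR. They summed to 359 to 1129 CPM in OSM and 117 to 596 CPM in PBS, and a listed marker that was not tested, Slc4a1, had reads in 2 mice. Their part in the values of Srxn1 and the other members was not tested.

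Gpx8 had the largest difference of the glutathione peroxidases. It is an endoplasmic reticulum enzyme of the family without selenocysteine, as its TGC codon above shows, and had 29.6, 20.3, 26.7, 36.2 and 19.1 CPM in the OSM mice and 28.1 to 60.3 CPM (median 40.6) in the PBS mice. Of the 5 OSM mice, 3 lay below all PBS mice, and the log2 fold change was -0.72 (SE 0.25), with -0.65, -0.54 and -0.91 within the litters. Markers of mural cells also had negative log2 fold changes in 7 of 7 genes, none of which passed after adjustment with edgeR, summing to 355 to 752 CPM (median 435) in OSM and 269 to 1496 CPM (median 850) in PBS, and none of them was at 0 in all mice. Their part in the values of Gpx8, Txnrd3 and Gsr was not tested. Gpx1 had 950.4, 972, 1285, 1271 and 1138 CPM in the OSM mice and 871 to 1407 CPM (median 1056) in the PBS mice, with a log2 fold change of 0.02 (SE 0.07). Gpx4 had 214, 210.1, 297, 289 and 275 CPM in OSM and 177 to 452 CPM (median 236) in PBS, with a log2 fold change of -0.02 (SE 0.13). Gpx3, the secreted peroxidase, had 16.6 to 40.2 CPM in OSM and 18.6 to 49.4 CPM in PBS. Its log2 fold change was -0.26 (SE 0.31), and within the litters it was -0.53, 0.38 and -0.51.

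The genes that make and recycle glutathione differed in both directions, with Gss the highest and Gsr the lowest in log2 fold change. Gsr, glutathione reductase, had 49.8, 56, 53, 46.7 and 51.2 CPM in the OSM mice and 50.03 to 101 CPM (median 62.5) in the PBS mice. Of the OSM mice, 2 lay below every PBS mouse and the other 3 below at least 4 of the 6 PBS mice. The log2 fold change was -0.36 (SE 0.16), with -0.69, -0.05 and -0.28 within the litters. Gss, glutathione synthetase, had 26.9 to 46.6 CPM in OSM and 15.3 to 39.4 CPM in PBS. Its log2 fold change was 0.44 (SE 0.28), with 0.78, 0.14 and 0.49 within the litters. Gclc, the catalytic subunit of the rate-limiting step of glutathione synthesis, had 36.2, 51.7, 33.1, 30.9 and 49.7 CPM in OSM and 22.9 to 59.2 CPM (median 37) in PBS. Its log2 fold change was 0.07 (SE 0.25), and that of its partner Gclm was -0.09 (SE 0.14). Slc7a11 had 2.84, 0.145, 2.55, 5.59 and 0.0715 CPM in OSM and 0.0574 to 2.67 CPM (median 1.35) in PBS, and its log2 fold change of -0.01 had an SE of 1.02, which leaves the direction unknown at this depth.

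The enzymes that act on superoxide and hydrogen peroxide directly overlapped between the groups. Sod1 had 101, 88.4, 137, 145 and 145 CPM in OSM and 102 to 145 CPM (median 114) in PBS, with a log2 fold change of 0.06 (SE 0.12). Sod2 had 47.6, 76.3, 66.1, 75.8 and 87 CPM in OSM and 58 to 83.8 CPM (median 70.3) in PBS, with 0.02 (SE 0.17). Cat, the peroxisomal catalase, had 327, 366, 364, 343 and 269 CPM in OSM and 279 to 362 CPM (median 308) in PBS, with 0.06 (SE 0.11). Sod3 had 7.36 to 24.3 CPM in OSM and 4.02 to 22.5 CPM in PBS, with -0.28 (SE 0.48).

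**Figure D3:**
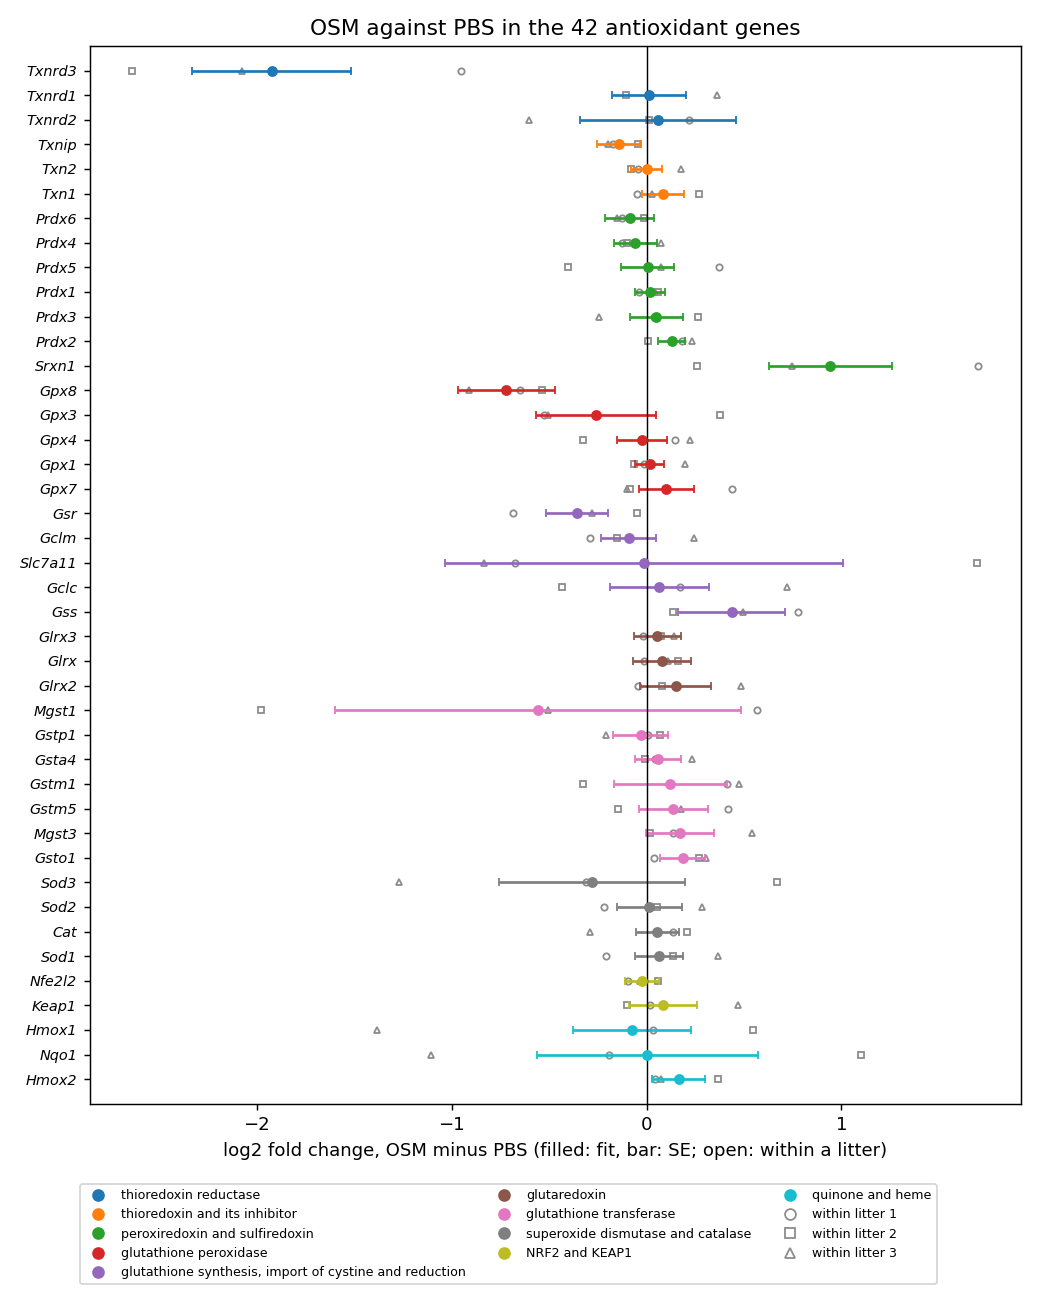
Log2 fold change of OSM against PBS for the 42 genes, grouped by role, from the fit with litter as a term (filled points, bars show the SE) and as the difference within each litter (open symbols). Txnrd3 lies far to the left at -1.92 and Srxn1 to the right at 0.94. Of the 42 fitted values, 34 (81%) lie within 0.25 of 0, compared with 45.1% of all genes, not matched for level.

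For the NRF2 pathway, its regulator, its inhibitor and 2 of its best known targets are given here. These 2 do not stand for all its targets. NRF2 drives many of the other members too, and their values are given with their own roles. Nfe2l2, which encodes NRF2, had 194, 180.3, 172, 191 and 182 CPM in OSM and 166 to 218 CPM (median 183) in PBS, with a log2 fold change of -0.03 (SE 0.09). Keap1 had 49.5, 62.4, 59, 42.9 and 79.7 CPM in OSM and 43.6 to 66.8 CPM (median 57.4) in PBS, with 0.08 (SE 0.18). Nqo1 had 8.59, 5.63, 7.65, 8.66 and 3.02 CPM in OSM and 1.99 to 11.8 CPM (median 5.71) in PBS. Its fold change of 0.00 (SE 0.57) covered litters of opposite sign. Hmox1, heme oxygenase, had 27.5, 38.4, 58.3, 49.4 and 16 CPM in OSM and 31 to 53.1 CPM (median 33.6) in PBS, with -0.07 (SE 0.30). The 7 glutathione transferases ranged from -0.56 (Mgst1, SE 1.04) to 0.19 (Gsto1, SE 0.12), and Mgst1, named after its values were seen, had no read in mouse 5 but 103 to 306 reads elsewhere. The 3 glutaredoxins lay between 0.06 and 0.15.

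Before adjustment, the test between the 3 litters flagged a larger share of the members than of all genes. All genes were not matched to the members by level. A test of the litter term on 2 degrees of freedom gave an unadjusted p under 0.05 in 15 of the 42 members (35.7%), compared with 1758 of the 17050 genes (10.3%). None of the 15 passed an adjusted p under 0.05 with edgeR, a threshold that 3 of all genes passed (0.0176%), whereas DESeq2's likelihood ratio test called 8 members and 995 of all genes. These 8 were Gsta4, Gpx1, Gpx4, Prdx1, Prdx2, Prdx4, Gstp1 and Gpx7. In 12 of the 15 members litter 1 was the lowest litter, in 2 the highest and in 1 between the others, and among the 1758 genes litter 1 was the lowest in 605 (34.4%) and the highest in 829 (47.2%).

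The members with the lowest litter p are named here after their values were seen. Gsta4, a transferase that detoxifies the lipid peroxidation product 4-hydroxynonenal, had 264 ± 22 CPM in litter 1 (SD, n = 4), 203 ± 33.8 in litter 2 (n = 4) and 139 ± 18.2 in litter 3 (n = 3). The log2 difference of litter 3 from litter 1 was -0.92 (SE 0.15), and edgeR's adjusted p over all genes was 0.0861 for the litter term. Prdx2, a peroxiredoxin abundant in red cells, had 350 ± 33.1 CPM in litter 1, 464 ± 11.3 in litter 2 and 453 ± 44.5 in litter 3 (edgeR's adjusted p 0.109). Gstp1 had 37.8 ± 5.78, 67.6 ± 7 and 61.3 ± 5.01 CPM (edgeR's adjusted p 0.115), and the 4 mice of litter 1 spanned 31 to 45.1 CPM, all below the 55.6 CPM or more of the other 7 mice. Gpx1 and Gpx4 were highest in litter 2, by 0.43 (SE 0.09) and 0.72 (SE 0.15) log2 units over litter 1. Prdx1 had 725 ± 12.8, 967 ± 123 and 910.2 ± 21.7 CPM in litters 1 to 3. Txnip, in contrast, was highest in litter 1, with 225 ± 31.6 CPM compared with 175 ± 27 and 184 ± 14.8 CPM.

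**Figure D4:**
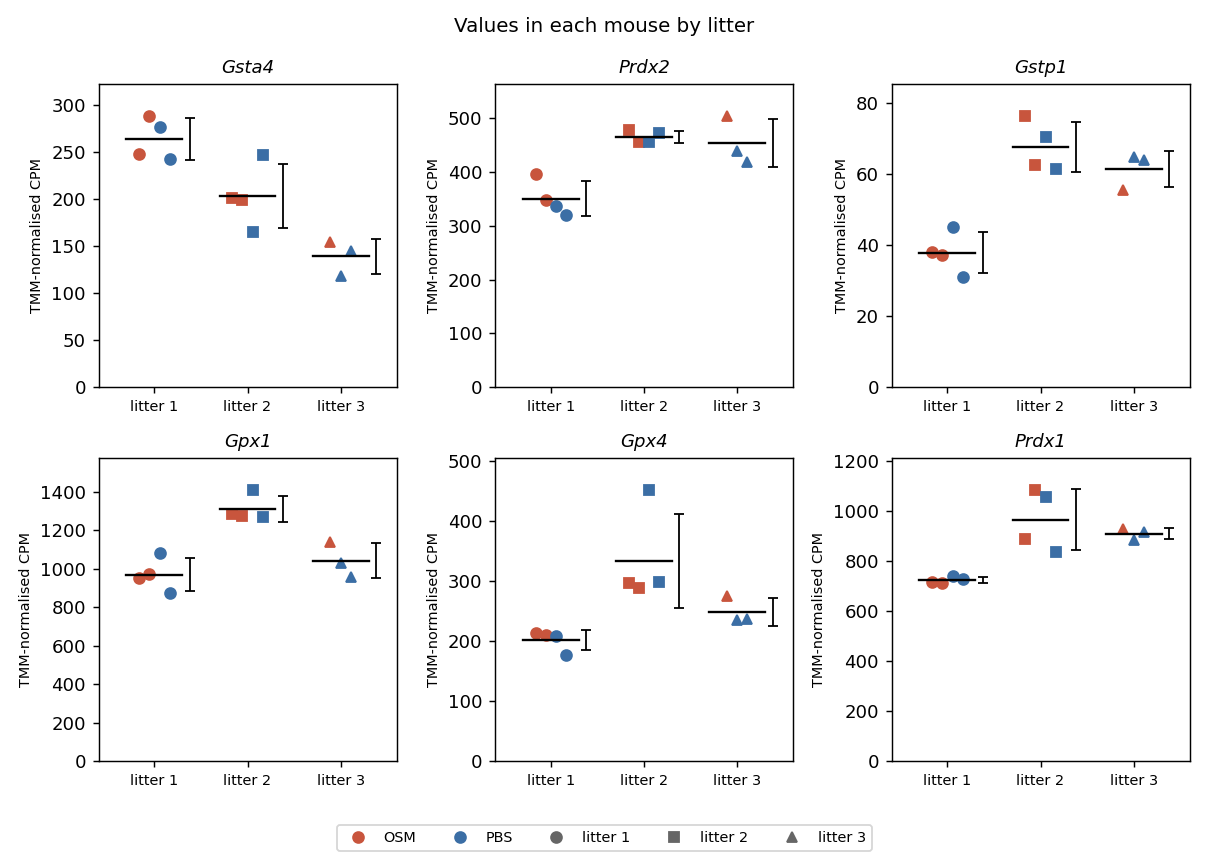
TMM-normalised CPM of Gsta4, Prdx2, Gstp1, Gpx1, Gpx4 and Prdx1 in each mouse by litter, with the mean (line) and SD (bar) of 4, 4 and 3 mice and the treatment as colour. Gsta4 is highest in litter 1 and lowest in litter 3, and the means of the other 5 are lowest in litter 1.

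Erythroid markers summed to 137 to 416 CPM in litter 1, 543 to 1129 CPM in litter 2 and 117 to 618 CPM in litter 3. All 5 tested had an unadjusted litter p under 0.05, and none passed after adjustment with edgeR. Rod markers were at 367 to 506 CPM in litter 1, 614 to 4988 in litter 2 and 175 to 1369 in litter 3. The 6 endothelial markers summed to 9024 to 10210, 7483 to 9748 and 8121 to 9612 CPM in litters 1 to 3. Of these 6, 3 had an unadjusted litter p under 0.05, and none passed after adjustment with edgeR. Mural markers summed to 355 to 761.5, 269 to 1008 and 378 to 1496 CPM, and 0 of 7 had such an unadjusted p. The part of any of these cell types in the litter differences of Prdx2, Gpx1, Gpx4 and Gstp1 was not tested.

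Whether the difference between OSM and PBS itself varied between litters was tested as the interaction of treatment and litter. It gave an unadjusted p under 0.05 in 2 of the 42 members (4.76%), compared with 1095 of all genes (6.42%), and there was 1 without PBS mouse 4 and there were 4 without PBS mouse 8. With edgeR no member and none of the 17050 genes passed an adjusted p under 0.05 (0%), whereas DESeq2 called 673 genes, among them these 2 members, Hmox1 and Prdx5. Hmox1, which degrades heme, had 27.5 and 38.4 CPM in OSM against 31 and 32.4 CPM in PBS in litter 1. It had 58.3 and 49.4 against 40.6 and 33 CPM in litter 2, and 16 against 53.1 and 34.2 CPM in litter 3. The difference was thus 0.03, 0.55 and -1.39 on the log2 scale, and the last rested on 1 OSM mouse. Prdx5, named after its values were seen, is a peroxiredoxin of mitochondria and peroxisomes and was higher in OSM in litter 1 (107 and 101 against 85.5 and 75 CPM). It was lower in OSM in litter 2, with 88 and 87.6 against 116 and 117 CPM, and in litter 3 the OSM mouse had 94.4 CPM and the PBS mice 86 and 93.7 CPM.

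**Figure D5:**
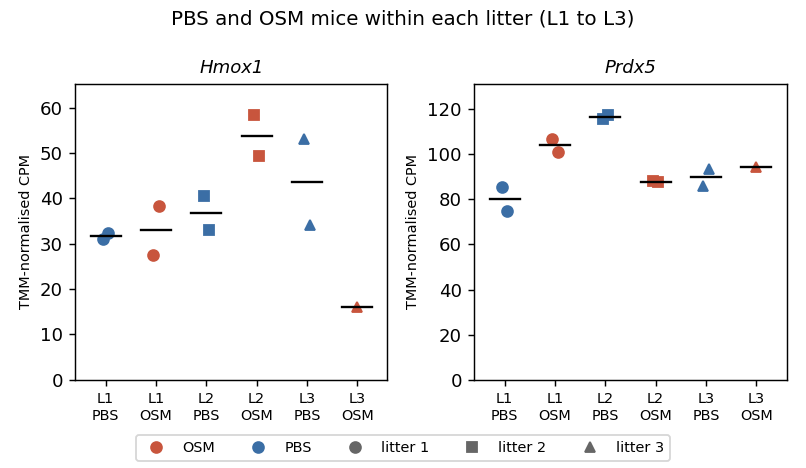
TMM-normalised CPM of Hmox1 and Prdx5 in each mouse, split by litter (L1 to L3) and treatment, with a line at the mean. In Hmox1 the OSM mice are above the PBS mice in litter 2 and below them in litter 3, and in Prdx5 they are above in litter 1 and below in litter 2.

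Genes that work with these enzymes were grouped in 9 lists, which held 157 different genes tested. Between OSM and PBS, 11 of them (7.01%) had an unadjusted p under 0.05, compared with 4.96% of all genes, and nothing is read from the single genes named next. No gene of these lists passed an adjusted p under 0.05 between OSM and PBS with edgeR, whereas DESeq2 called 3, namely Tkt, Ugdh and Duox2. Of 21 other selenoproteins and selenium factors, 2 had such an unadjusted p, both higher. These were Selenok, a selenoprotein of the endoplasmic reticulum (log2 fold change 0.24, SE 0.09), and Secisbp2, whose protein binds the RNA element that recodes TGA as selenocysteine (0.49, SE 0.18). In the NADPH supply, 1 of 19 was lower, the pentose phosphate enzyme Tkt (-0.42, SE 0.10). Of 29 further glutathione enzymes tested, Gstm4 was lower (-1.20, SE 0.52) and Chac2, which degrades glutathione, higher (1.07, SE 0.40). Of 13 NRF2 partners, Sqstm1, which sequesters KEAP1, was higher (0.15, SE 0.06), and of 13 other NRF2 targets Ugdh was higher (0.68, SE 0.19). None of 16 genes of iron and heme handling reached it, and of 14 sources of superoxide Ncf4 and Duox2 were lower, with means of 0.407 and 1.81 CPM. Ero1a, an oxidase of disulfide formation, was higher (0.59, SE 0.23) among 17 genes of that process, and Msra, a methionine sulfoxide reductase, lower (-0.58, SE 0.23) among 18 other thiol genes.

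In the same lists the litter term reached an unadjusted p under 0.05 in 21 of the 157 genes (13.4%), compared with 10.3% of all genes, and none passed after adjustment with edgeR. The count was highest in both NRF2 lists, with 4 of 13 genes each (30.8%). These were Maff, Mafk, Nfe2l1 and Btrc among the partners, and Osgin1, Ephx1, Abcc4 and Mocos among the other targets. DESeq2 called 8 of the 157 between litters, namely Selenoh, Pstk, Gstt1, Abcc1, Slc3a2, Maff, Abcc4 and Alas1. The interaction reached an unadjusted p under 0.05 in 13 genes (8.28%), compared with 6.42% of all genes, and none passed after adjustment with edgeR, whereas DESeq2 called Ggt7, Bach1, Flvcr1, Blvra, Pdia4 and Tmx1. The genes of these lists called between litters or for the interaction are named after their values were seen.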

How the data were processed

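Retinal endothelial cells of 11 mice (5 OSM, 6 PBS, 3 litters) were profiled by RNA sequencing from poly(A)-primed, PCR-amplified cDNA. Per the labels and the methods of the study, the authors used STAR to align single reads to GRCm39 and featureCounts at standard settings, without use of strand, to assign them to GENCODE genes. The deposited files hold these whole-number read counts, not normalised, for 55359 genes per mouse, of which 54749 were found in GENCODE vM39, used here for symbols, positions and sequences. As reads carry no molecular identifiers, errors are those between mice.

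In edgeR 4.0.16 (R 4.3.3), counts were scaled by TMM, filtered with filterByExpr (count minimum 10, design with litter and treatment, 17050 genes) and fitted by the quasi-likelihood method with robust estimation. Tests were OSM against PBS with litter as a term, the litter term, and their interaction, adjusted over all genes by Benjamini-Hochberg (threshold 0.05). The SE of a fold change is its size divided by the square root of F. Within-litter differences are differences of mean log2(CPM + 0.5). DESeq2 1.42.0 was an alternative. No libraries were copies of each other, with a lowest chi-square per gene of 67.6 over 55 pairs.

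The 42 members and all lists were chosen with earlier results of these data known. Values in full are given for members set by role, the 3 highest per length and those with an unadjusted p under 0.05. For 2 PBS mice of litter 3 the column header of the file gives another mouse number than the label, with the same group, and the label was used. Other experiments of the study were not analysed here.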

Additional observations from a re-analysis of the deposited data

Results flagged for a closer look

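In each treatment group, the highest and lowest value of each of the 42 genes was compared with the rest by Dixon's test. Of the 84 groups tested, 4 held a value past the limit, and chance flags about 1 in 20 groups, so this number is not above what chance gives. Txnrd2 was high in OSM mouse 5, with 28.9 CPM compared with 6.63 to 12.8 CPM in the other OSM mice. Txn2 was high in OSM mouse 6, with 256 CPM compared with 218 to 222 CPM. Sod3, the extracellular superoxide dismutase, was low in PBS mouse 8, with 4.02 CPM compared with 16.5 to 22.5 CPM. Srxn1 was high in PBS mouse 7, with 38.8 CPM compared with 11.3 to 20.5 CPM in the other PBS mice.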

How the results depend on the processing

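With OSM against PBS, no member and no gene passed an adjusted p under 0.05 in the main fit. With no filter on low counts 1 member (Txnrd3) and 65 genes passed, and with DESeq2 1 member (Txnrd3) and 168 genes. The 4 members at an unadjusted p under 0.05 became 1 without litter 1, and without single mice there were 2 to 5, with 2 when OSM mouse 9 was left out. For the litter term, 0 members and 3 genes passed. There were 3 members and 625 genes with no filter, 1 member and 53 genes at a mean above 100 counts, 8 members and 995 genes with DESeq2, and 14 genes with a filter by treatment group, which was chosen after seeing the data. Without single mice, 0 to 1 members and 0 to 44 genes passed, the highest without PBS mouse 8, where the 1 member was Gsta4. For the interaction, 0 members and 0 genes became 2 members and 673 genes with DESeq2 and 305 genes with no filter. The 2 members at an unadjusted p under 0.05 became 1 with no filter and 1 to 4 without single mice (1 without PBS mouse 4, 4 without PBS mouse 8), with 0 to 1 genes called. The causes of these changes were not tested. Fold changes of the 18 genes described in full stayed within 1 SD of the spread between mice of a group in all 377 comparisons with an alternative. That yardstick is wide and also passes a change of sign. The sign held for Txnrd3 (-2.55 to -1.39), Srxn1 (0.46 to 1.37), Gpx8, Gsr and Txnip. The other genes had alternatives of both signs, with the widest ranges in Slc7a11 (-1.2 to 0.83) and Nqo1 (-0.66 to 0.37). No paired analysis was possible because each mouse number occurs in 1 group only, and litter served as the block. Interaction estimates in litter 3 rest on 1 OSM mouse.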

Other observations

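Slc7a11, the cystine importer, had 160 reads in the mouse with most and 2 in the mouse with fewest, while its partner chain Slc3a2, which also serves other transporters, was at 1787 CPM on average. Mgst1 had no read in mouse 5 but 3.25 to 9.6 CPM in the other 10 mice. Both are given as values, and their causes were not tested.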
